A study of Mus musculus with 12 samples.

Results

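The 9 genes described here encode the proteins that bring vitamin A into a cell, bind it, turn it into retinoic acid and remove retinoic acid again. They were chosen by symbol, as the probe sets whose only gene symbol is Stra6, Rbp4, Crabp1, Crabp2, Aldh1a1, Aldh1a2, Dhrs3, Cyp26a1 or Cyp26b1, and they make up 9 of the 19938 genes measured. Each had 1 probe set. RNA came from N2A, a mouse neuroblastoma cell line, on 12 single-colour gene arrays in 4 groups of 3: KD cells, which carry a stable short hairpin RNA against the long non-coding RNA Dali, after retinoic acid (RA), control cells with a stable scrambled hairpin after RA, proliferating KD cells and proliferating control cells. RA cells had spent 72 h in 20 µM all-trans RA with 2% serum, while proliferating cells grew in 10% serum without RA, so the effect of RA and that of less serum cannot be told apart. All 4 groups carry a hairpin vector driven by a U6 promoter and a hygromycin resistance plasmid, and were grown from drug-resistant clones. Whether the 3 arrays in a group stand for separate clones or separate cultures is not stated in the labels, and the p-values cover only the spread between these arrays. The study describes several clonal KD lines set against a single control line, so knockdown and differences between clones cannot be told apart here.

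Cells take up retinol from its carrier RBP4 through the membrane receptor STRA6. Retinol is oxidised to retinal, a step that DHRS3 reverses, and ALDH1A1 and ALDH1A2 oxidise retinal irreversibly to RA. CRABP1 and CRABP2 bind RA in the cytosol, CRABP2 carrying it to the RA receptors, and CYP26A1 and CYP26B1 hydroxylate RA for clearance. Several of these genes, Cyp26a1 foremost, are known as direct targets of RA receptors in many cell types, which makes the pathway a feedback loop.

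Receptors for RA bind direct repeats of a short half-site. The promoter windows of both degrading enzymes are shown because Cyp26b1 passed the test for a response to RA and Cyp26a1 did not, as given below. No test compared the genes with each other, and the choice came from these same values. Sequences are those of RefSeq on GRCm38.p6 and run from 250 bases before to 50 bases after an annotated start, and capitals mark a repeat. The Cyp26a1 window lies at chr19:37697558-37697857 on the plus strand and the Cyp26b1 window at chr6:84593761-84594060 on the minus strand.

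Cyp26a1: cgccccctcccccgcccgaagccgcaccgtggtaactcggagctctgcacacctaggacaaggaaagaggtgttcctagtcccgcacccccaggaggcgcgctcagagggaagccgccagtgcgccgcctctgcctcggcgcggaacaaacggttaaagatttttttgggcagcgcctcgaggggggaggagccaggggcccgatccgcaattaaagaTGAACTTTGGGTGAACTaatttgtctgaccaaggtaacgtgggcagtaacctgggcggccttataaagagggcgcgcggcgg

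Cyp26b1: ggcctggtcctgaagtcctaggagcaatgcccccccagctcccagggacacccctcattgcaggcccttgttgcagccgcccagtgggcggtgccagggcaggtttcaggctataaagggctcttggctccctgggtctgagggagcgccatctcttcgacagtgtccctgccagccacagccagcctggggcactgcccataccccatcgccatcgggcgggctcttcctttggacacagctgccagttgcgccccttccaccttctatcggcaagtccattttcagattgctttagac

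The search covered the half-site AGGTCA, its variant AGTTCA, and the same 2 with G as the first base (GGGTCA as well as GGTTCA), in pairs on 1 strand with a gap of 5, 2 or 1 bases, on both strands. The Cyp26a1 window held 1 such repeat, at bases 219 to 235 of the 300, which reads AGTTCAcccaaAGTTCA on the strand opposite to the gene. A repeat with a gap of 5 occurred in 32 of the 32851 promoter windows of the mouse annotation (0.0974%), and a repeat with any of the 3 gaps in 193 (0.588%). None of the other windows of these genes, which belong to Cyp26b1, Stra6, Rbp4, Crabp1, Aldh1a1, Aldh1a2 and Dhrs3, held these letters. A match in a window, or the lack of one, is a description of the sequence only. Sites outside the windows or with other letters were not searched, and Crabp2 had no entry among the promoters.

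Across the 12 arrays the retinoid genes fell into 3 that moved and 6 that stayed within a narrow range. Cyp26b1 ranked 22 of 19938 genes by interquartile range, Rbp4 1620 and Stra6 1628. The probe sets of Stra6 and Rbp4 lay above the array median on all 12 arrays and that of Cyp26b1 on 8, while those of Crabp2, Aldh1a1, Aldh1a2, Dhrs3 and Cyp26a1 lay below it on all 12. Probe sets differ in brightness, so these places do not rank the genes against each other. Whether any of these probe sets lay above background was not assessed, so a narrow range need not mean unchanged expression. Values are log2 expression values throughout, errors of a group are SD with n = 3, and errors of a difference are standard errors (SE). A gene was called at an adjusted p under 0.05 in limma and a change of at least 1.3-fold, or 0.38 on the log2 scale.

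**Figure D1:**
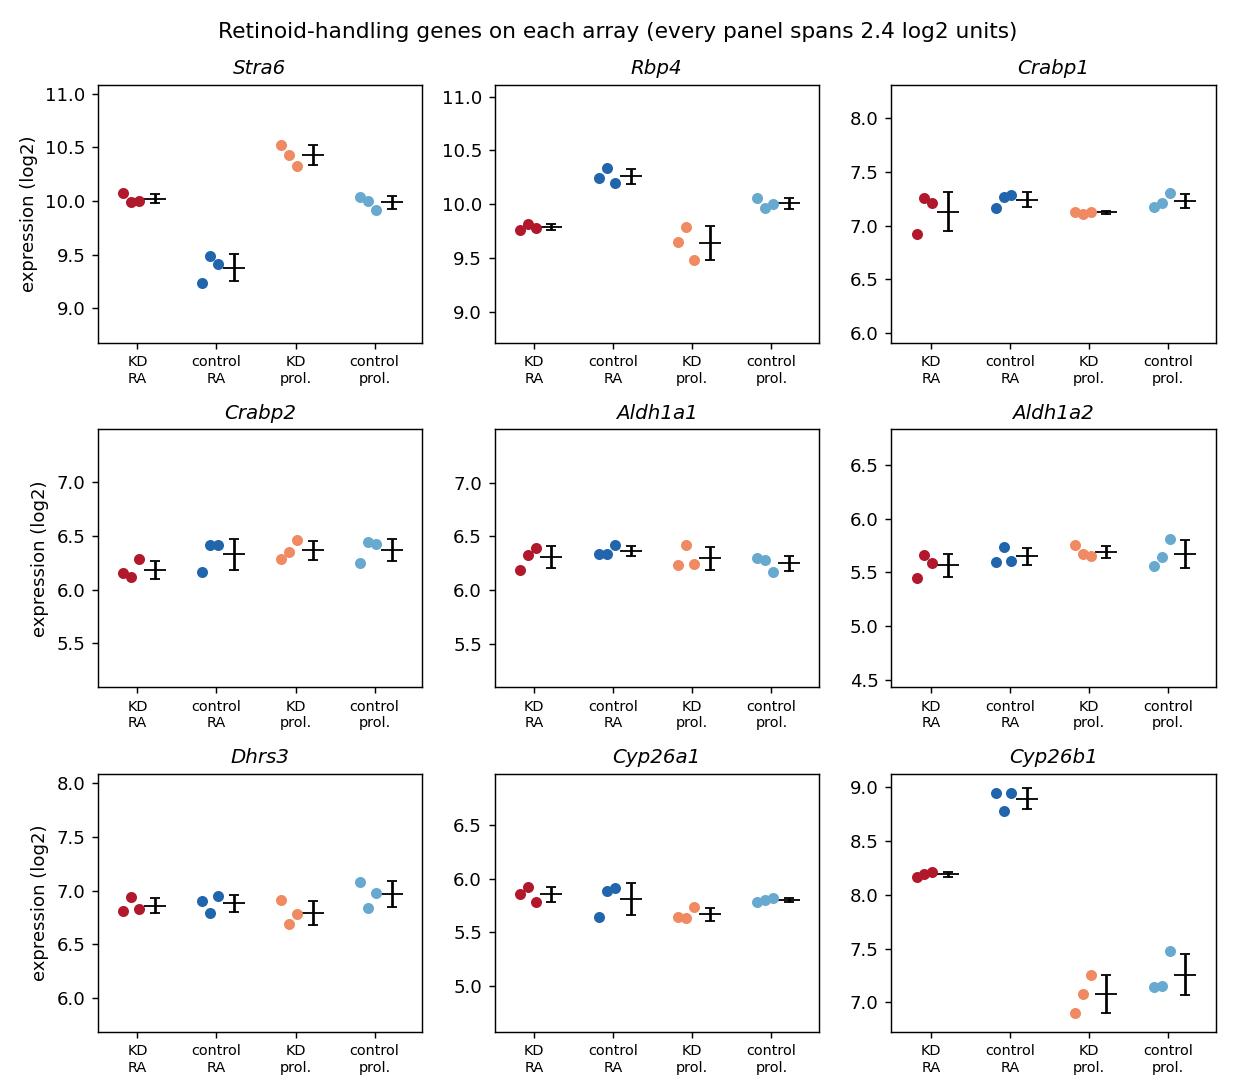
Expression (log2, vertical axis, each panel spanning the same range) of the 9 retinoid genes on each array (points). Bars beside them give each group's mean and its SD (n = 3). Cyp26b1 is high on the arrays of RA cells, Stra6 is lowest in control cells after RA, and Rbp4 is lower in KD cells than in control cells in both states.

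The uptake receptor gene Stra6 was higher in KD cells in both states and fell with RA in both kinds of cell. After RA the arrays of KD cells read 10.07, 9.99 and 10.00, and those of control cells 9.24, 9.49 and 9.41. In proliferating cells they read 10.52, 10.43 and 10.33 in KD cells and 10.04, 10.00 and 9.92 in control cells. KD and control arrays did not overlap in either state, and RA and proliferating arrays of the same kind of cell did not overlap either. The means were 10.02 ± 0.04 in KD cells after RA, 9.38 ± 0.12 in control cells after RA, 10.43 ± 0.09 in KD cells without RA and 9.99 ± 0.06 in control cells without RA. Proliferating KD cells thus stood highest and control cells after RA lowest, and the 2 groups between them, KD cells after RA and proliferating control cells, overlapped, with a difference of 0.03 between their means.

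Stra6 was 1.56-fold higher in KD than in control cells after RA (log2 difference 0.64 ± 0.07 (SE), adjusted p = 4.64e-05 in limma) and 1.36-fold higher in proliferating cells (0.44 ± 0.07, adjusted p = 0.000513). With RA it fell by 0.41 ± 0.07 on the log2 scale in KD cells (adjusted p = 0.000616) and by 0.61 ± 0.07 in control cells (adjusted p = 3.25e-05). The fall in KD cells lost its call without 1 proliferating KD array, replicate 1, where it was -0.36 with an adjusted p of 0.00367 and so under the fold threshold. The difference between the RA responses of KD and control cells (KD minus control), called the interaction below, was 0.20 ± 0.10 with a 95% confidence interval from -0.01 to 0.41 and did not pass the test (adjusted p = 0.314). The name of the gene, stimulated by retinoic acid 6, records its rise with RA in mouse embryonal carcinoma cells, the direction opposite to that measured here.

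Rbp4, the gene of the secreted retinol carrier, ran the other way. After RA the arrays of KD cells read 9.76, 9.82 and 9.78, and those of control cells 10.24, 10.34 and 10.20. In proliferating cells they read 9.65, 9.79 and 9.48 in KD cells and 10.06, 9.96 and 10.00 in control cells. Every KD array lay below every control array of the same state. The means were 9.78 ± 0.03 in KD cells after RA, 10.26 ± 0.07 in control cells after RA, 9.64 ± 0.16 in proliferating KD cells and 10.01 ± 0.05 in proliferating control cells, and the KD arrays of the 2 states overlapped.

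After RA, Rbp4 was lower in KD than in control cells by a called difference of -0.48 ± 0.07 (adjusted p = 0.000355). In proliferating cells the difference of -0.37 ± 0.07 passed the p threshold (adjusted p = 0.00195) but not that of size, at 0.774-fold, and it was called without KD replicate 2 (-0.44) or without control replicate 2 (-0.39). It was weaker without KD replicate 3 (-0.29) or without control replicate 1 (-0.34). With RA, Rbp4 differed by 0.15 ± 0.07 in KD cells (adjusted p = 0.139) and by 0.25 ± 0.07 in control cells (adjusted p = 0.0156), both under the fold threshold. The interaction was -0.11 with an interval from -0.33 to 0.11.

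Liver is the main source of RBP4 in the body. Of 5 liver genes listed as markers 4 were measured, of which 3 (Alb, Ttr and Afp) lay below the array median on every array and 1 (Apoa1) above it on every array. None of the 4 passed the variance filter, so none could be called. Their summed level spanned 8.18 to 8.36 in KD cells after RA, 8.23 to 8.31 in control cells after RA, 8.29 to 8.35 in proliferating KD cells and 8.28 to 8.35 in proliferating control cells (log2).

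Of the RA-degrading enzymes, Cyp26b1 rose with RA, and to a lower level in KD than in control cells. The RA arrays read 8.17, 8.19 and 8.21 in KD cells and 8.95, 8.78 and 8.95 in control cells. The proliferating arrays read 6.90, 7.08 and 7.25 in KD cells and 7.14, 7.15 and 7.48 in control cells. All RA arrays lay above all proliferating arrays, the RA arrays of KD cells all lay below those of control cells, and the proliferating arrays of KD and control cells overlapped. The means were 8.19 ± 0.02 in KD cells after RA, 8.89 ± 0.09 in control cells after RA, 7.08 ± 0.17 in KD cells without RA and 7.25 ± 0.19 in control cells without RA.

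The rise was 2.16-fold in KD cells (1.11 ± 0.10, adjusted p = 5.63e-06) and 3.11-fold in control cells (1.64 ± 0.10, adjusted p = 2.96e-07). After RA, Cyp26b1 was lower in KD than in control cells, with a difference of -0.70 ± 0.10 (adjusted p = 0.000273), and in proliferating cells the difference was -0.18 ± 0.10 (adjusted p = 0.2). The interaction was -0.53 ± 0.14, with an interval from -0.84 to -0.22 on the log2 scale, and did not pass the test over all genes (adjusted p = 0.0864). It was called when only genes above the median level were tested (adjusted p = 0.02), when the variance prior followed intensity (adjusted p = 0.0116) and without control replicate 3 (-0.64, adjusted p = 0.0491). That was the only call when each of the 12 arrays was left out in turn. The interaction then spanned -0.64 to -0.44, with adjusted p-values of up to 0.171. Without the variance filter it was not called (adjusted p = 0.11). The filter on level used the mean over all 12 arrays. Cyp26b1 lay above the array median on all 3 arrays of each RA group but on only 1 of each proliferating group.

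Cyp26a1, whose window holds the repeat printed above, was not called in any comparison. The RA arrays read 5.86, 5.92 and 5.78 in KD cells and 5.64, 5.89 and 5.91 in control cells, and the proliferating arrays 5.64, 5.63 and 5.74 in KD cells and 5.78, 5.80 and 5.82 in control cells. The RA arrays of KD cells lay above their proliferating arrays, and those of control cells lay on both sides of theirs. The proliferating KD arrays lay below the proliferating control arrays. The RA difference was 0.18 ± 0.07 in KD cells (adjusted p = 0.0594) and 0.01 ± 0.07 in control cells, with an interval from -0.14 to 0.17 in control cells. Whether its probe set lay above background was not assessed here.

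**Figure D2:**
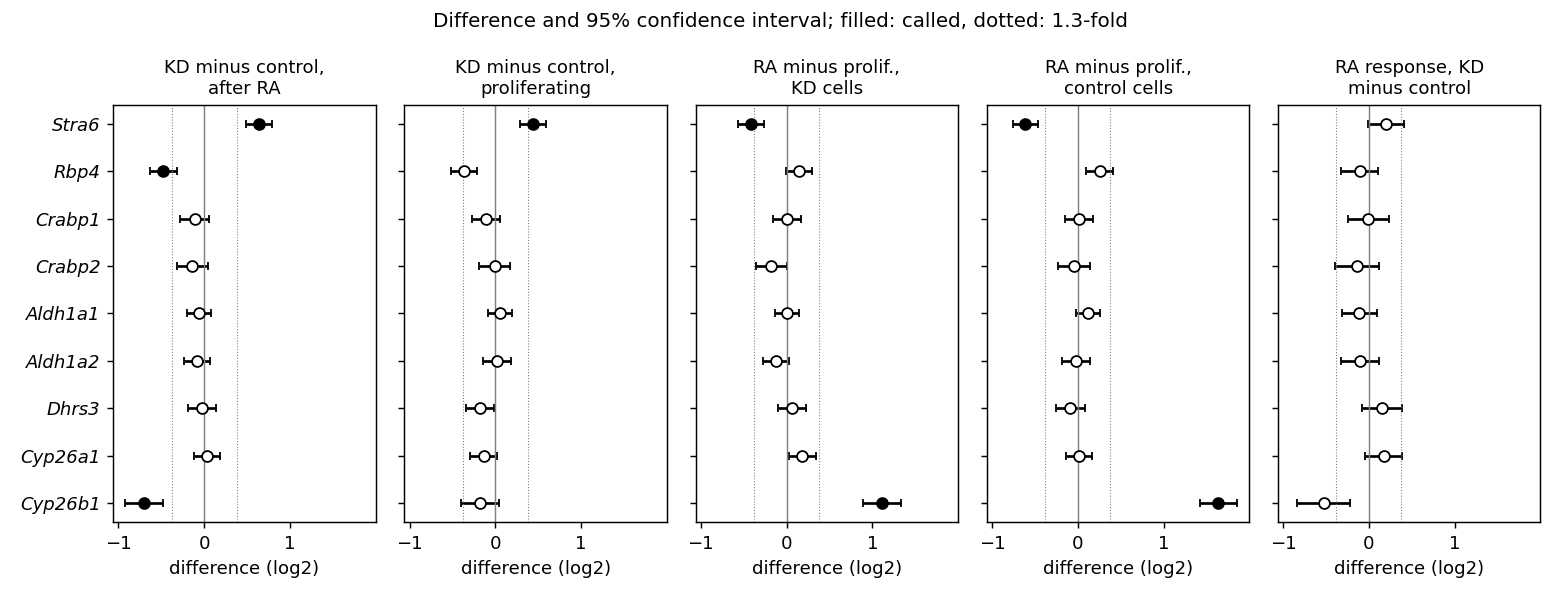
Difference of group means (log2, horizontal axis) with its 95% confidence interval for each retinoid gene (vertical axis) in the 5 comparisons. Filled points are called and dotted lines mark a 1.3-fold change. Called points belong to Stra6, Rbp4 and Cyp26b1, and the points of the other 6 genes lie between the dotted lines in every comparison. Interaction intervals of Crabp2, Dhrs3 and Cyp26a1 reach past a dotted line.

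The RA-binding protein genes did not pass the test in any comparison. Crabp1 spanned 6.92 to 7.30 over the 12 arrays and did not pass the variance filter, and its difference between KD and control cells was -0.11 ± 0.08 after RA and -0.10 ± 0.08 in proliferating cells (adjusted p = 0.347 and 0.416 without the filter). Its 3 proliferating KD arrays, at 7.11 to 7.13, lay below the proliferating control arrays, at 7.17 to 7.30, a separation that 38.7% of all genes showed in this comparison. Crabp2, whose product carries RA to its receptors, spanned 6.12 to 6.46. With RA it differed by -0.18 ± 0.08 in KD cells (adjusted p = 0.112) and by -0.04 ± 0.08 in control cells (adjusted p = 0.743).

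The probe sets of the RA synthesis genes varied as little, and whether they lay above background was not assessed. Aldh1a1 spanned 6.17 to 6.42 and Aldh1a2 5.45 to 5.81, and neither passed the variance filter. For RA in control cells, Aldh1a1 differed by 0.12 ± 0.07 (adjusted p = 0.269 without the filter) and Aldh1a2 by -0.02 ± 0.07 (adjusted p = 0.911). The RA arrays of Aldh1a1 in control cells, at 6.34 to 6.42, lay above the proliferating ones, at 6.17 to 6.30. For RA in KD cells the differences were 0.01 ± 0.07 and -0.13 ± 0.07 for these 2 genes. Aldh1a2 is the main RA-forming enzyme of the mouse embryo, and both genes lay below the array median on every array.

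Dhrs3, whose product returns retinal to retinol and which RA induces in many cells, read 6.81 to 6.94 in KD cells after RA, 6.79 to 6.95 in control cells after RA, 6.69 to 6.91 in proliferating KD cells and 6.84 to 7.08 in proliferating control cells. All groups overlapped. Its RA difference was 0.07 ± 0.08 in KD cells (interval -0.10 to 0.23) and -0.09 ± 0.08 in control cells (interval -0.25 to 0.08). Its KD difference in proliferating cells was -0.18 ± 0.08 (adjusted p = 0.0959).

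Counted over the 9 genes, KD against control cells after RA gave 3 calls, Stra6 higher and Rbp4 and Cyp26b1 lower, where 7.71% of all genes tested were called in either direction. Proliferating KD cells had Stra6 alone called, against 6.96% of all genes tested. With RA, 2 genes were called in KD cells, Cyp26b1 higher and Stra6 lower, against 9.94% of all genes tested. The same 2 genes were called, in the same directions, in control cells, against 9.34%. For the interaction, where 1.24% of all genes tested were called, the count was 0 of 9, with Cyp26b1 at an unadjusted p of 0.00312. Of the 9 genes 6 passed the variance filter, and the counts include the other 3 as not called. A single call among 9 genes lies close to the background share, and with so few genes the counts are given as a description. Arrays that do not overlap between groups were more common than calls. They occurred for 3 of the 9 genes in KD against control cells after RA (34.0% of all genes), for 4 in proliferating cells (38.7%), for 3 with RA in KD cells (34.7%) and for 4 with RA in control cells (33.5%), so the shares of the 9 lay near those of all genes. The comparisons share arrays, so they are not independent of each other. In a bulk sample, fewer cells that express a gene and less RNA per cell cannot be told apart.

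The other genes of the retinoid pathway, from transport and ester storage to oxidation, were called in the comparisons of KD with control cells only. Of 42 listed, 41 were measured and 18 passed the variance filter, so the rest could not be called. Of the 18, 0 were called with RA in KD cells, 0 with RA in control cells and 0 for the interaction, against 9.94%, 9.34% and 1.24% of all genes tested. After RA, Bco1, whose enzyme cleaves beta-carotene into retinal, was lower in KD than in control cells (-0.70 ± 0.06, adjusted p = 5.81e-06), the only call among the 18, against 7.71% of all genes tested. In proliferating cells 3 of the 18 were called, against 6.96%. Bco1 (-0.62 ± 0.06) and Dgat1 (-0.40 ± 0.08), an acyltransferase that can also esterify retinol, were lower in KD cells, and the retinol dehydrogenase gene Rdh5 was higher (0.44 ± 0.07). The median difference of the 41 genes between KD and control cells was -0.058 after RA and -0.044 in proliferating cells, against -0.028 and -0.012 for all genes. With the arrays centred on their medians, the median difference of the 41 genes was -0.098 and -0.045. Centring lowered the differences of all genes alike, by 0.040 after RA and 0.002 in proliferating cells. The distance between the list and all genes therefore did not change.

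A list of 36 RA receptors and genes known to respond to RA elsewhere, 34 of them measured, had 14 that passed the variance filter, and the rest could not be called. With RA 3 of the 14 were called in each kind of cell, against 9.94% of all genes tested in KD cells and 9.34% in control cells. Nrip1, a ligand-dependent corepressor of nuclear receptors, rose by 0.65 ± 0.05 in KD cells and 0.83 ± 0.05 in control cells. Meis1, a homeodomain partner of Hox proteins, rose by 0.39 ± 0.06 in KD cells and 0.93 ± 0.06 in control cells. Ret, the receptor tyrosine kinase for the GDNF family, fell by 0.42 ± 0.04 in both kinds of cell. Adjusted p-values of these 6 differences were at most 0.000401. The median change of the 34 genes with RA was -0.021 in KD cells and 0.022 in control cells, against -0.015 and 0.003 for all genes. With centred arrays it was -0.046 and 0.035, and the values of all genes shifted by the same amounts.

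Of the 14, Nrip1 and Meis1 were the only 2 called between KD and control cells after RA, against 7.71% of all genes tested. As with Cyp26b1, both were lower in KD cells, by differences of -0.38 ± 0.05 and -0.83 ± 0.06. The median difference of the 34 genes was -0.065, against -0.028 for all genes. The means of Meis1 were 8.07 in KD cells after RA, 8.91 in control cells after RA, 7.69 in proliferating KD cells and 7.98 in proliferating control cells. Its interaction was the only 1 called among the 14 (-0.54 ± 0.09, adjusted p = 0.0163), against 1.24% of all genes tested. That of Nrip1 was -0.17 ± 0.08 (adjusted p = 0.269) and that of Ret 0.00 ± 0.06 (adjusted p = 0.989). In proliferating cells the only call of the list was Ncoa7, a nuclear receptor coactivator gene, higher in KD cells by 0.49 ± 0.05. The share of all genes tested was 6.96% there.

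**Figure D3:**
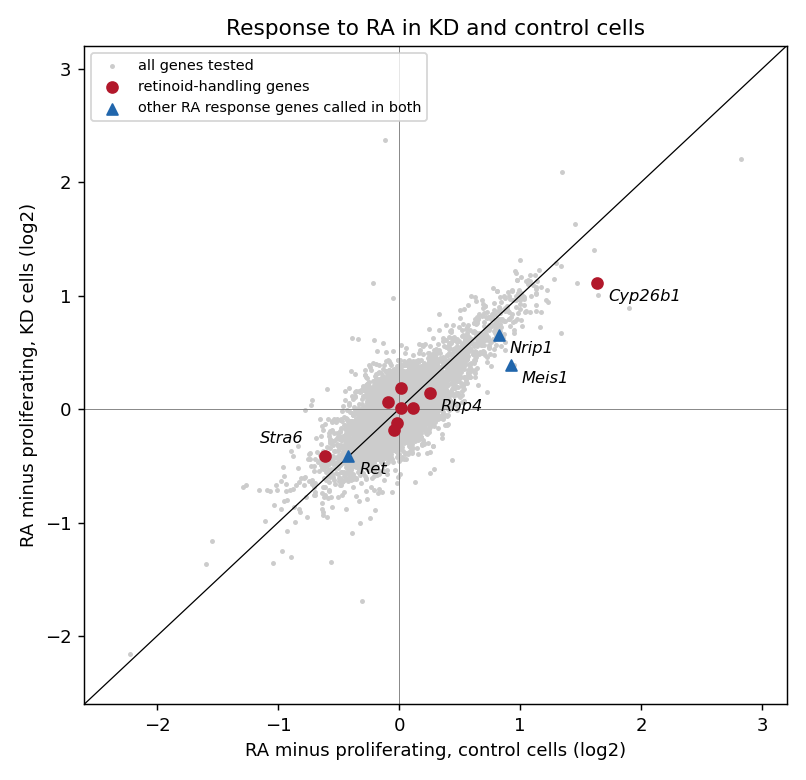
Difference between RA and proliferating arrays (log2) in KD cells (vertical axis) and in control cells (horizontal axis) for all genes tested (grey), the 9 retinoid genes (circles) and the 3 other RA response genes called in both (triangles). The line marks equal responses, and Cyp26b1 (1.11 in KD cells, 1.64 in control cells) and Meis1 (0.39 and 0.93) lie below it on the side of rises.

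The genes whose levels ran most like those of the 3 moving members were named by Pearson correlation over the 12 arrays. These values describe arrays that share the same 4 groups, and say nothing of shared function. For Stra6 they were Elovl7, a fatty acid elongase gene (r = 0.990), Cast, the gene of the calpain inhibitor calpastatin (r = 0.985), and Tmem209 (r = 0.980). For Rbp4 they were Clu, which encodes the secreted chaperone clusterin (r = 0.977), Nipal2 (r = 0.976) and the ceramide kinase gene Cerk (r = 0.974). For Cyp26b1 they were Nol4l (r = 0.988), Plekhb1 (r = 0.986) and Plxna4, a semaphorin receptor gene (r = 0.986).

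After RA, the 3 measured genes on each side of Stra6, Rbp4 and Cyp26b1 differed less between KD and control cells than the gene they flank, with the exception of Islr. Islr, the nearest measured gene beyond Stra6 on chromosome 9, was far lower in KD cells, with differences of -1.59 ± 0.05 after RA and -1.58 ± 0.05 in proliferating cells, while Stra6 was higher. The nearest measured genes on the other side, Ccdc33 and Cyp11a1, differed by -0.06 to -0.02 between KD and control cells. With RA, Islr2, the gene after Islr, differed by -0.36 ± 0.05 in KD cells, under the fold threshold, and fell by 0.43 ± 0.05 in control cells. Cep55, which acts in the last step of cell division and lies near Rbp4, rose with RA by 0.56 ± 0.07 in KD cells and 0.70 ± 0.07 in control cells, where Rbp4 was not called. Over the 50 nearest measured genes the median difference between KD and control cells was 0.01 after RA and 0.05 in proliferating cells around Stra6, with the same 2 values around Rbp4 on chromosome 19, and -0.04 and 0.02 around Cyp26b1 on chromosome 6. Around Rbp4 4 of the 50 were called higher in KD cells after RA and 6 in proliferating cells, with 0 lower. Around Stra6 1 was called higher and 2 lower after RA, and 2 each way in proliferating cells. Around Cyp26b1 0 were called in either state. Of all genes tested 7.71% and 6.96% were called, and neighbours that failed the variance filter could not be.

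**Figure D4:**
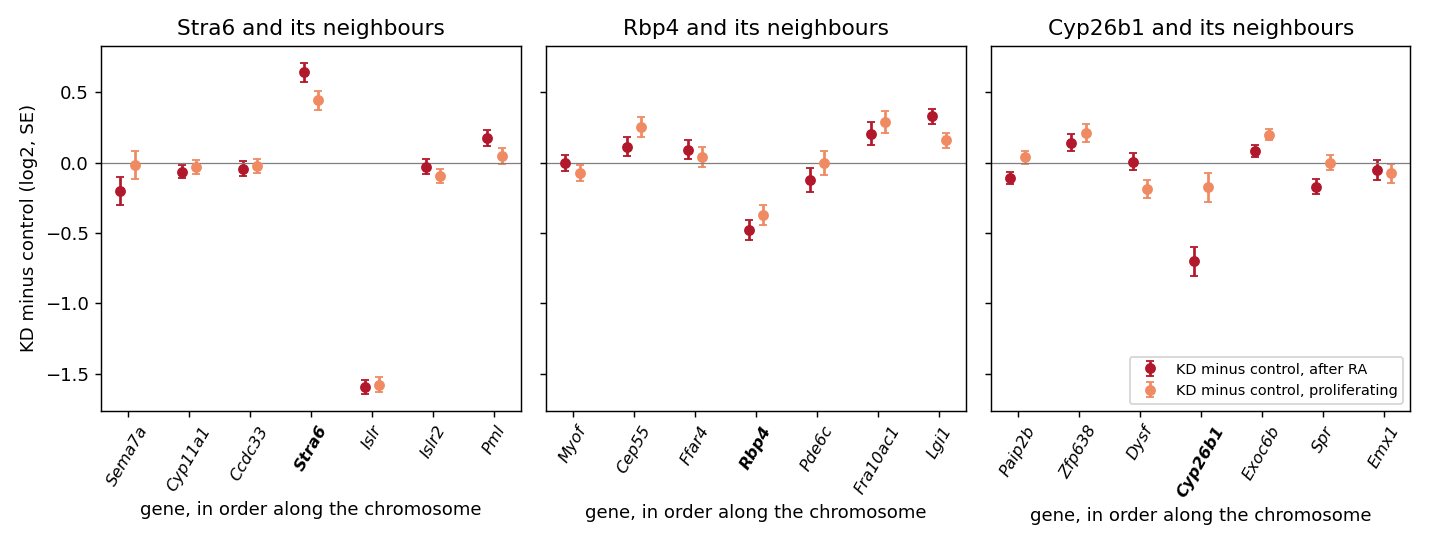
Difference between KD and control cells (log2, vertical axis, points with SE) after RA and in proliferating cells for Stra6, Rbp4 and Cyp26b1 and the 3 measured genes on each side, in order along the chromosome (horizontal axis). The neighbour that departs furthest from 0 is Islr beside Stra6, at -1.59 and -1.58.

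Of 14 genes listed as markers of sympathetic neuroblasts 12 were measured, and all 12 lay above the array median on every array. So did 4 of 7 fibroblast markers, while the other 3 lay below it on every array. A level above the median therefore does not by itself mark the kind of cell. Of the 12 neuroblast markers, 11 passed the variance filter. After RA 1 was called higher in KD than in control cells (Dbh, 0.41 ± 0.07) and 2 lower (Chgb, -0.44 ± 0.06, and Phox2a, -0.42 ± 0.06), against 7.71% of all genes tested. In proliferating cells 5 were called higher in KD cells, against 6.96%. With RA 5 were called lower in KD cells and 4 in control cells, against 9.94% and 9.34%. Their summed level spanned 13.99 to 14.11 in KD cells after RA, 14.17 to 14.19 in control cells after RA, 14.36 to 14.41 in proliferating KD cells and 14.36 to 14.38 in proliferating control cells (log2). Of 7 fibroblast markers 1 was called, Pdgfrb, lower in KD cells by -0.39 ± 0.06 after RA and -0.85 ± 0.06 in proliferating cells, and the summed level of the list spanned 9.83 to 10.04, 9.97 to 10.10, 9.76 to 9.84 and 10.04 to 10.08 in the same order of groups. Of 6 glial markers measured 3 passed the variance filter and 0 were called, and of 4 immune and endothelial markers, all below the array median, Pecam1 fell with RA. The part of these shifts in the values of the retinoid genes was not tested. No probe set was named for Dali, so its level cannot be given here, and arrays of 1 group correlated at 0.9924 to 0.9961 over all probe sets.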

How the data were processed

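The values analysed are log2 expression values deposited by the authors for every probe set and array. The study's methods state that the arrays were background-corrected by RMA and quantile-normalised, and that values were then summarised by gene. Of the tools, the submitters' processing notes list RMA and limma, both without a version. Quantile normalisation puts all arrays on 1 scale (medians 7.146 to 7.209) and hides any difference in total RNA. The sources used here give no dates or batches. With 3 arrays in a group, the number of arrays limits the precision.

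The platform annotation gave 1 gene symbol to 21789 of 35556 probe sets, several to 1621 and none to 12146. By gene identifier, 21698 matched RefSeq on GRCm38.p6 and 91 did not, and 0 symbols changed. Because the build behind the array is not stated, RefSeq was used for names, gene order and the printed promoters alone. Where a gene had several probe sets, the one with the largest interquartile range over the 12 arrays stood for it, giving 19938 genes. The lower 50% by that range were then dropped, which left 9969. limma 3.58.1 in R 4.3.3 (lmFit and eBayes, two-sided, no replicate block) was fitted to the 4 group means, with Benjamini-Hochberg adjustment over the genes tested. The code was tested on simulated data. KD was compared with control after RA and in proliferating cells, RA with proliferating in KD and in control cells, and the 2 RA responses with each other (the interaction).

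The members, the lists and the named genes (all members, called genes of the 2 lists, called markers, and the 3 genes closest by correlation) were chosen with earlier results of these data known, and neighbouring genes were taken by place. The alternatives concerned the filter, the scaling, the probe sets, the variance model, the fold threshold, the replicate block and each array left out.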

Additional observations from a re-analysis of the deposited data

Results flagged for a closer look

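The groups hold 3 arrays each, too few for a test of single arrays that lie apart. Among the genes named, 3 had an RA response that differed between KD and control cells by the interaction in limma, and none of them is one of the 9 retinoid genes. Meis1, from the list of RA response genes, rose less with RA in KD cells than in control cells (interaction -0.54 ± 0.09, SE, adjusted p = 0.0163). Mycn, a neuroblast marker, fell with RA in KD cells, with means of 9.05 in KD cells after RA, 9.05 in control cells after RA, 9.48 in proliferating KD cells and 8.99 in proliferating control cells (interaction -0.50 ± 0.07, adjusted p = 0.00764). Pdgfrb, a fibroblast marker, had means of 7.54, 7.93, 7.29 and 8.14 in the same order of groups (interaction 0.45 ± 0.08, adjusted p = 0.0208).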

How the results depend on the processing

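Of 840 results for single retinoid genes under an alternative, 799 kept direction and call, 1 lost its call, 8 gained one and 0 called values turned round. Some of the 840 differences could not move. Each gene had 1 probe set, so the mean of probe sets left it as it was. For a comparison of 2 groups, leaving out an array of another group did not alter the difference. The 799 therefore overstate how far the results were put to the test. The alternatives were the 2 filters, the 2 scalings, the mean of probe sets, fits on the compared groups alone, the replicate block, array weights, the intensity trend, no fold threshold and each array left out, and the cause of the changes was not tested. In proliferating KD against control cells 2 retinoid genes were called, Rbp4 joining Stra6, with quantile normalisation repeated (-0.39) or with no fold threshold (-0.37), and 1 to 2 with an array left out. For RA in KD cells 1 to 2 were called with an array left out, and for the interaction 0 to 1. Rbp4 with RA in control cells (0.25) was called with no fold threshold, and the interaction called 1 retinoid gene, Cyp26b1, among genes above the median level or with the intensity trend. With no fold threshold, all genes called numbered 3485 in proliferating KD cells, 3726 in KD cells after RA, 3652 for RA in KD cells, 3298 for RA in control cells and 206 for the interaction. With an array left out the interaction called 41 to 143 of all genes, against 124 with all arrays.

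Signs turned 32 times, always for uncalled differences near 0. The values were 0.01 for Crabp2 in proliferating KD cells with quantile normalisation repeated, 0.01 for Dhrs3 in KD cells after RA and 0.02 for the Crabp1 interaction with array weights, and, for RA in KD cells, -0.02 with centred arrays and -0.01 with repeated quantile normalisation for both Crabp1 and Aldh1a1. With an array left out, proliferating KD minus control spanned -0.07 to 0.03 for Crabp2, -0.01 to 0.08 for Aldh1a1 and -0.03 to 0.09 for Aldh1a2. RA in KD cells spanned -0.06 to 0.11 for Crabp1 and -0.03 to 0.07 for Aldh1a1. RA in control cells spanned -0.01 to 0.06 for Crabp1, -0.11 to 0.04 for Crabp2, -0.08 to 0.05 for Aldh1a2 and -0.04 to 0.02 for Cyp26a1, and the Crabp1 interaction -0.07 to 0.10. Cyp26a1 and Dhrs3 failed the variance filter with some arrays left out, and those cases have no value. Centring the arrays shifted all genes alike, by at most 0.040, which is large beside the list medians. The median of the other retinoid pathway genes became -0.098 in KD against control cells after RA (-0.058 without centring) and -0.037 for RA in KD cells (-0.012), and that of the RA response genes -0.105 in KD against control cells after RA (-0.065) and -0.046 for RA in KD cells (-0.021).

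The main fit did not pair arrays by replicate number, and whether same-numbered arrays were handled together is not known here. Deviations of same-numbered arrays correlated at -0.088 to 0.215, over 0.1 in 5 of 18 pairs, and with the replicate block the 3 retinoid genes were called in KD against control cells after RA, 1 in proliferating cells, 2 with RA in each kind of cell and 0 for the interaction, as without it. With the block, 773 of all genes were called between KD and control cells after RA and 696 in proliferating cells. For RA it called 990 in KD cells and 934 in control cells. Over all genes the block changed no count by more than 1.5 times (94 calls for the interaction, 124 without the block).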
